A study of Mus musculus with 4 samples.

Results

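Astrocytes secrete proteins that change how neurons build synapses. Glypicans 4 and 6 (Gpc4, Gpc6), heparan sulfate proteoglycans released from the cell surface, promote synapses with AMPA-type glutamate receptors. Thrombospondins 1 and 2 (Thbs1, Thbs2) and hevin (Sparcl1) promote the formation of excitatory synapses, SPARC (Sparc) counteracts hevin, and chordin-like 1 (Chrdl1) is known for driving the switch to mature AMPA receptor subunits. Gpc5 is a further glypican, of the subfamily that also holds Gpc3. These 8 genes were followed here, chosen by symbol from the 31053 genes of the deposited matrix. All 8 were found, each in 1 row.

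Retinal and other sensory input reaches the midbrain in the superior colliculus. Nuclei were isolated from the superior colliculus of C57BL/6J mice, a wild-type inbred strain with no treatment named in the labels, at embryonic day 19 (E19) and postnatal days 4, 8 and 21 (P4, P8, P21). Each stage was 1 library of nuclei from several pooled animals, so no difference between stages has a replicate check and none was tested. The libraries held 2249 to 2585 nuclei (9724 in all) and 19277512 to 31325079 unique molecular identifiers (UMIs, counts of captured transcripts), with medians of 6828 UMIs per nucleus at E19 and 11745 at P21. The deposited annotation gave 9 classes and 35 subtypes. Astrocytes numbered 196, 223, 233 and 287 nuclei in stage order, excitatory neurons 682 to 1338, inhibitory neurons 738 to 1088, and the oligodendrocyte lineage 47 to 306. Vascular leptomeningeal cells, the fibroblast-like cells of the brain coverings, numbered 36 to 139, and each of the 4 other classes had 10 to 40 nuclei per library. Of 9715 distinct barcode sequences, 9 occurred in more than 1 library.

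Levels are UMIs of a gene per 1000000 UMIs of a class in a library (CPM), with 95% intervals in brackets that cover counting error only. The comparison between stages counted a gene as higher or lower where its level differed at least 2-fold and reached 20 CPM in the higher sum. Classes carried their own markers: 8 astrocyte markers summed to 2474 to 6883 CPM in astrocytes and to 91.7 to 199 CPM in the neuron classes. Vascular leptomeningeal cells also held astrocyte markers (1512 to 3214 CPM, mostly Slc1a3 and Gja1). The class named epithelial went against its name: 5 choroid plexus and ependymal markers summed to 0, 111, 14.4 and 7.28 CPM over the 4 stages, while 6 leptomeningeal markers summed to 792 to 1374 CPM. At P4 the choroid plexus and ependymal markers reached 696 CPM in astrocytes. It is called the class annotated as epithelial below. Markers of 1 class also appeared in others: 5 oligodendrocyte markers in astrocytes summed to 31.7 to 47.6 CPM before P21 and to 760 CPM at P21, and in microglia to 1414 CPM at P21. A UMI of Xist was found in 0.967%, 46.0%, 40.7% and 68.1% of nuclei in stage order, so the mix of sexes moved with stage. Gpc4 and Chrdl1 are X-linked, and the part of this mix in their values was not tested.

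Gpc5 stood furthest apart of the 8 members in astrocytes. It lies on chromosome 14 (chr14:115092215-116525179, GRCm38, plus strand) and spans 1432965 bases, of which 0.311% is exonic. Over the 4 stages its level in astrocytes was 362 CPM (324 to 403), 953 CPM (893 to 1015), 2096 CPM (2017 to 2179) and 7952 CPM (7815 to 8090). Each stage lay above the one before beyond counting error, and the ratio of P21 to E19 was 22.0 (19.7 to 24.6). Only 52 of the 8577 genes at 20 CPM or more had a larger ratio. The steps were 2.63-fold, 2.20-fold and 3.79-fold, the last between the libraries furthest apart in age.

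At E19 the astrocyte level of Gpc5 was not above that of neurons: excitatory neurons held 651 CPM (636 to 665) and inhibitory neurons 363 (348 to 378). Astrocytes were level with excitatory neurons at P4 (ratio 1.02, 0.958 to 1.09) and above them 2.05-fold at P8 and 7.31-fold at P21. Of all Gpc5 UMIs in a library, astrocytes held 3.28%, 5.35%, 12.4% and 38.1% in stage order. They contributed 4.28% to 5.19% of the UMIs of all genes over the same stages. Microglia, taken here as the class to read background from, held 70.8, 110, 119 and 135 CPM, on 4 to 15 UMIs each.

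The difference lay in protoplasmic astrocytes, the type of grey matter, and was not seen beyond counting error in fibrous astrocytes, the type of white matter. These 2 subtypes are deposited annotations built from the same expression data, so what follows describes the subtypes and is no test of their difference. Protoplasmic astrocytes (155, 175, 188 and 232 nuclei) held 438, 1201, 2534 and 9219 CPM. Fibrous astrocytes (41, 48, 45 and 55 nuclei) held 68.2, 88.6, 68.1 and 132 CPM, in the range of the microglia. The protoplasmic level was 6.41-fold the fibrous one at E19 (3.70 to 12.2) and 69.7-fold at P21 (48.8 to 103), with 13.6-fold and 37.2-fold at P4 and P8. In fibrous astrocytes the ratio of P21 to E19 was 1.94 (0.981 to 4.05).

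The share of nuclei with Gpc5 differed as well. After each nucleus was thinned to 2300 UMIs, which left out no nucleus, a Gpc5 UMI remained in 25.2%, 52.6%, 80.9% and 100% of protoplasmic astrocytes in stage order, the last being 232 of 232 nuclei (Clopper-Pearson interval 98.4 to 100). The mean was 0.865, 2.50, 5.25 and 20.4 UMIs per nucleus. Fibrous astrocytes stood at 9.76% to 23.6% and microglia at 19.0% to 30.3%, on 13 to 33 microglia per library, so the fibrous share is not read as expression. Inhibitory neurons, which mix subtypes of high and low Gpc5, stood at 18.9% to 28.7% and held 334 to 417 CPM. The plot of astrocyte subtypes shows the separation.

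**Figure D1:**
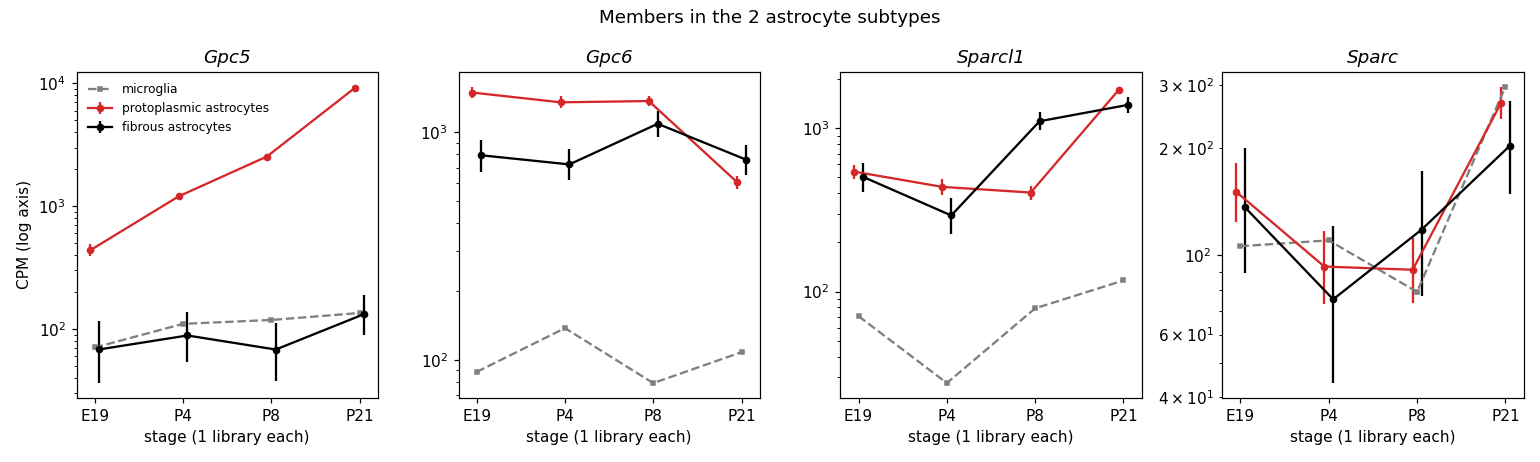
Level in CPM (log axis) of Gpc5, Gpc6, Sparcl1 and Sparc at 4 stages in protoplasmic (red) and fibrous (black) astrocytes, with 95% Poisson intervals, and in microglia (grey, dashed, no interval drawn). Gpc5 reached 9219 CPM in protoplasmic astrocytes at P21 while fibrous astrocytes stayed at 68.1 to 132 CPM, near the microglia; Sparcl1 was high in fibrous astrocytes from P8.

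Gpc4, by contrast, was higher early. It lies on the X chromosome (chrX:52053021-52165252, GRCm38, minus strand). In astrocytes it stood at 44.3 CPM (31.8 to 60.1), 43.6, 37.1 and 21.5 CPM (15 to 29.9) in stage order, on 35 to 46 UMIs per library. The first 3 stages lay within each other's intervals, and E19 was 2.06-fold above P21 (1.28 to 3.33). With 5 or 20 CPM added to both values, under median-of-ratios scaling or after thinning, that ratio fell short of 2-fold. Astrocytes held 4.14-fold to 11.3-fold the level of excitatory neurons and 3.72-fold to 8.39-fold that of inhibitory neurons.

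Some classes outside astrocytes held as much Gpc4 or more. The class annotated as epithelial held 0, 14, 6 and 30 UMIs, the last 109 CPM (73.6 to 156), and dividing cells held 61.3 CPM at E19 (13 UMIs). Vascular leptomeningeal cells held 95.5, 32.5, 129 and 51.2 CPM, with no single direction over the stages. Of the neuron subtypes EN12 had the highest mean, with 10.3, 34.4, 30.2 and 33.5 CPM in stage order. IN3 held 11, 0, 5 and 0 UMIs, the first 36.4 CPM and the last from a library where 3 counts would be 1.51 CPM. With that last zero set to 3 counts, E19 was 24.2-fold higher than P21.

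The start regions of Gpc5 and Gpc4 are shown because the astrocyte sums of these glypicans differed in opposite directions between E19 and P21. A link between these sequences and the levels was not tested. Each line gives the 250 bases before the start of the gene in RefSeq (GRCm38.p6), 5′ to 3′ on the strand of the gene, with the letters GGGCGG or their complement in capitals. Gpc5 is at chr14:115091965-115092214 (plus strand) and Gpc4 at chrX:52164924-52165173 (minus strand). The RefSeq start of Gpc4 lies 329 bases inside the gene bounds given above, which are from GENCODE, so its window falls within them.
Gpc5: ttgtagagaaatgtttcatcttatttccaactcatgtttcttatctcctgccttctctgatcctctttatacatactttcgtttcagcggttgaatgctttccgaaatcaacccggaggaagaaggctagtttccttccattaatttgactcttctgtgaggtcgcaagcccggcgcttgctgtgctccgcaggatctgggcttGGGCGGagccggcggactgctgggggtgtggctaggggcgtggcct
Gpc4: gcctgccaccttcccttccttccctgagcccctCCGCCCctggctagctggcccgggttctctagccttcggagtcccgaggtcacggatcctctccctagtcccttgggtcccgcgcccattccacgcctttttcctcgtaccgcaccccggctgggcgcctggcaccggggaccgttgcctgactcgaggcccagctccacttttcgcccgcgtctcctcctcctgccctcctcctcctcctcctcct
GGGCGG, the letters of the GC box, occurred once in each, counting either strand. At least 1 match was found in 32.7% of the 32851 RefSeq promoter windows of this length. TATAAA occurred once for Gpc5 and not for Gpc4 (12.4% of windows), and TTGGC and ACAATG occurred in neither (41.5% and 10.7%). No match shared letters with another. G and C made up 51.2% of the Gpc5 window and 68.4% of the Gpc4 window, against a median of 52.4%. A RefSeq window was also found for Sparc and Thbs2.

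Gpc6, the neighbour of Gpc5 (chr14:116925315-117976544, GRCm38, plus strand, 400135 bases further on), did not share its course. In astrocytes it held 1351 CPM (1277 to 1428), 1213, 1322 and 625 CPM (587 to 664) in stage order. P21 stood apart, at 2.16-fold below E19 (1.99 to 2.35) and 1.94-fold below P4. Protoplasmic astrocytes went from 1495 to 603 CPM and were 2.48-fold higher at E19 than at P21 (2.26 to 2.71). Fibrous astrocytes held 793 CPM at E19 and 759 at P21, a ratio of P21 to E19 of 0.957 (0.765 to 1.2). The order of the subtypes turned: protoplasmic astrocytes were 1.89-fold above fibrous at E19, and fibrous were 1.26-fold above protoplasmic at P21 (1.06 to 1.48).

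Of the 5 members at 20 CPM or more in astrocytes, 2 were higher at P21 (Gpc5, Sparcl1; 9.84% of all genes there) and 2 lower (Gpc4, Gpc6; 22% of all genes). The median log2 ratio was 0.80 over the 5 members and -0.27 over all 8577 genes. Median-of-ratios scaling moved all astrocyte ratios by about 0.15 on the log2 scale, which left Gpc4 at -0.89 and Gpc6 at -0.97, both short of 2-fold. Levels of different genes are set side by side per kilobase of gene span, a scale that fits only if intronic reads were counted, which the sources used here do not give. On it Sparcl1 had 15.4 CPM per kilobase at E19 and 48.5 at P21. Sparc had 5.16 and 9.01, Gpc5 0.252 and 5.55, Gpc6 1.28 and 0.594, and Gpc4 0.394 and 0.192 CPM per kilobase.

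**Figure D2:**
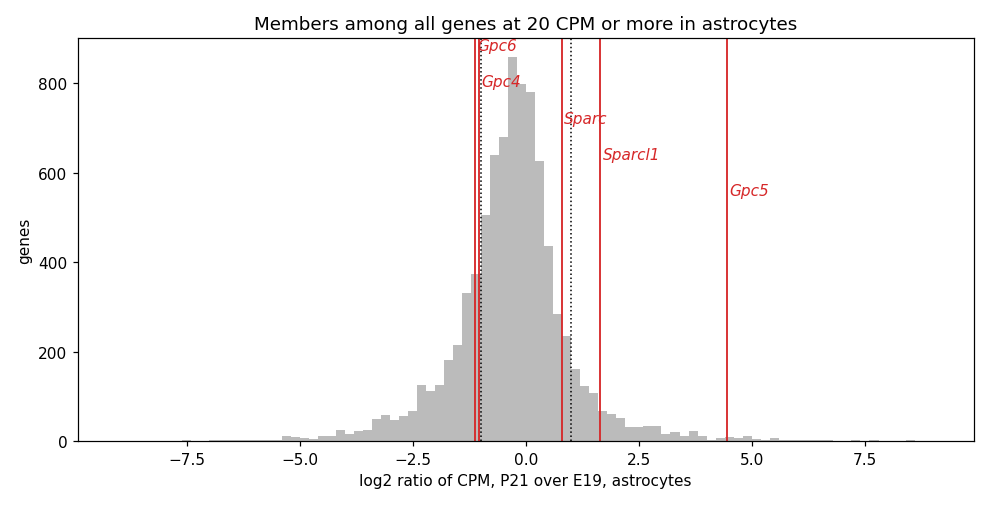
Number of genes by log2 ratio of CPM, P21 over E19, for the 8577 genes at 20 CPM or more in astrocytes (grey bars); red lines mark the 5 members at that level and dotted lines a 2-fold difference. Gpc5 lies at 4.46 in the right tail, Sparcl1 at 1.65, Sparc at 0.80, and Gpc4 and Gpc6 at -1.04 and -1.11.

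Sparcl1, the gene of hevin, lies on chromosome 5 (chr5:104079111-104113733, GRCm38, minus strand) and overlaps the antisense gene Gm26703, which had 146 UMIs in astrocytes. Astrocytes held 534 CPM (488 to 584), 405 (367 to 446), 528 (488 to 570) and 1678 CPM (1616 to 1743) of Sparcl1 in stage order. P4 was the lowest stage, and the ratio of P21 to E19 was 3.14 (2.85 to 3.46). The 2 astrocyte subtypes did not change in step: at P8 fibrous astrocytes held 1103 CPM and protoplasmic 404, a ratio of 2.73 (2.32 to 3.21). At P21 both were high (1389 and 1725 CPM). After thinning, 93.3% of fibrous and 43.1% of protoplasmic astrocytes held a Sparcl1 UMI at P8, against 90.9% and 96.6% at P21.

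Neurons held Sparcl1 too, and it was higher at P21 there as well. Excitatory neurons held 38.8, 32.4, 47.9 and 123 CPM, and inhibitory neurons 47.1, 32.7, 44.6 and 102 CPM. The ratios of P21 to E19 were 3.17 (2.86 to 3.52) and 2.17 (1.90 to 2.48), in classes where 6.51% and 7.26% of all genes were at least 2-fold higher. In both classes Sparcl1 was the only one of 3 members at 20 CPM or more to reach that, and no member was 2-fold lower (13.3% and 13.6% of all genes). With 20 CPM added to both values the inhibitory ratio fell short of 2-fold.

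The difference between P21 and E19 was spread over the neuron subtypes. Of 23 neuron subtypes with at least 20 nuclei at both stages, 17 had at least 2-fold more Sparcl1 at P21 and none had 2-fold less; over all genes, 13% of gene-by-subtype pairs were higher and 19.5% lower. Among excitatory subtypes EN4 had a ratio of 5.75 (3.40 to 10.5). EN12 held 25.8 CPM at E19 and 28.6 at P21, and IN3 held 53.0 and 48.2 CPM, ratios whose intervals spanned 1. The intervals of 19 of the 23 lay above 1.

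Sparcl1 in neurons was 7.25% of the astrocyte level at E19 and 7.32% at P21 in excitatory neurons, and 8.82% and 6.10% in inhibitory neurons. The sum of the 8 astrocyte markers went the other way in excitatory neurons, from 165 CPM at E19 to 91.7 at P21, and in inhibitory neurons from 199 to 109 CPM. At P21 Aqp4, Slc1a3, Gja1, Aldh1l1 and Slc7a10 in excitatory neurons were each at 0.456% to 0.967% of their astrocyte level, Slc1a2 at 1.3%, Gfap at 3.43% and Aldoc at 9.26%. Microglia held 70.8, 27.6, 79.0 and 117 CPM of Sparcl1, on 2 to 13 UMIs. After thinning, a Sparcl1 UMI was found in 22.0% of excitatory and 22.4% of inhibitory neurons at P21 and in 24.2% of the 33 microglia (11.1 to 42.3). The neuron shares were thus no higher than that of microglia. By level, neurons at P21 (123 and 102 CPM) were above myelinating oligodendrocytes, which held 52.3 CPM (41.6 to 64.9), and the class annotated as epithelial, which held 50.9 CPM (27.8 to 85.5). They were within the intervals of oligodendrocyte precursors, which held 86.8 CPM (56.7 to 127), and of microglia, which held 117 CPM (62.3 to 200). The part of free RNA in the difference was not tested.

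Vascular leptomeningeal cells showed the opposite direction. Sparcl1 stood at 536, 361, 351 and 165 CPM in stage order, and P4 was 2.20-fold above P21 (1.76 to 2.75). The summed leptomeningeal markers of these nuclei also differed, from 4246 CPM at P4 to 2387 at P21, and their part in the result was not tested. Among 6 members at 20 CPM or more, Sparcl1 was the 1 that was 2-fold lower (16.1% of all genes) and Thbs2 the 1 that was 2-fold higher (5.25% of all genes), from 12.2 to 26.2 CPM on 6 and 24 UMIs (ratio 2.15, 0.855 to 6.42). In stage order Thbs2 held 27.3, 12.2, 35.3 and 26.2 CPM, so P4 was its lowest stage and E19 was close to P21. After thinning Sparcl1, and with 5 CPM added Thbs2, fell short of 2-fold. In the 3 of 78 and 6 of 139 nuclei left without markers of another class the Sparcl1 log2 ratio was 1.69. That filter dropped nuclei with at least 2 UMIs of Snap25, Syt1 and Rbfox3 or of Aqp4, Slc1a3 and Slc1a2. As this class itself held Slc1a3, a dropped nucleus need not be a mixed one. Gpc6 went from 2650 to 3672 CPM (1.39-fold), and Gpc5 was at 93.4 and 79.6 CPM.

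Sparc, which encodes a matrix protein made widely by vascular cells, lies on chromosome 11 (chr11:55394500-55423183, GRCm38, minus strand). Endothelial cells held the highest level in every library, 1316, 1576, 1401 and 691 CPM on 12 to 22 nuclei. That class also held 2076 to 2604 CPM of 5 mural cell markers. Vascular leptomeningeal cells held 577, 290, 270 and 217 CPM. Astrocytes held 148 CPM (124 to 175), 89.1 (71.7 to 110), 95.9 (79.5 to 115) and 258 CPM (234 to 284), a ratio of P21 to E19 of 1.75 (1.44 to 2.13).

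The P21 value of Sparc was 2.90-fold that of P4 (2.30 to 3.68) in astrocytes, so the size of the difference depended on the first stage taken. Microglia, which are known to make Sparc, held 106, 110, 79.0 and 297 CPM on 6 to 33 UMIs. In excitatory neurons it was 9.79 to 14.9 CPM and in inhibitory neurons 10.1 to 18.6 CPM. The astrocyte level was 7.18-fold to 26.4-fold that of excitatory neurons. Fibrous and protoplasmic astrocytes did not differ in Sparc beyond counting error in any library; at P21 the ratio of fibrous to protoplasmic was 0.759 (0.546 to 1.03).

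In all, 3 of the 5 members at 20 CPM (Sparc, Sparcl1, Gpc4) were at least 2-fold higher in astrocytes than in both neuron classes in all 4 libraries, against 9.1% of all genes tested. Sparc and Gpc4 were under 20 CPM in both neuron classes in every library, so they entered this count only through astrocytes. Chrdl1, Thbs1 and Thbs2 were under 20 CPM in astrocytes and in both neuron classes and were left out. The count thus depends on the filter and is a description only. None was 2-fold lower throughout (9.87% of all genes). Gpc5 and Gpc6 were neither. Between the astrocyte subtypes, Gpc5 was the 1 member at least 2-fold lower in fibrous than in protoplasmic astrocytes in every library, as were 1.08% of all genes, and no member was 2-fold higher throughout (2.61%).

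**Figure D3:**
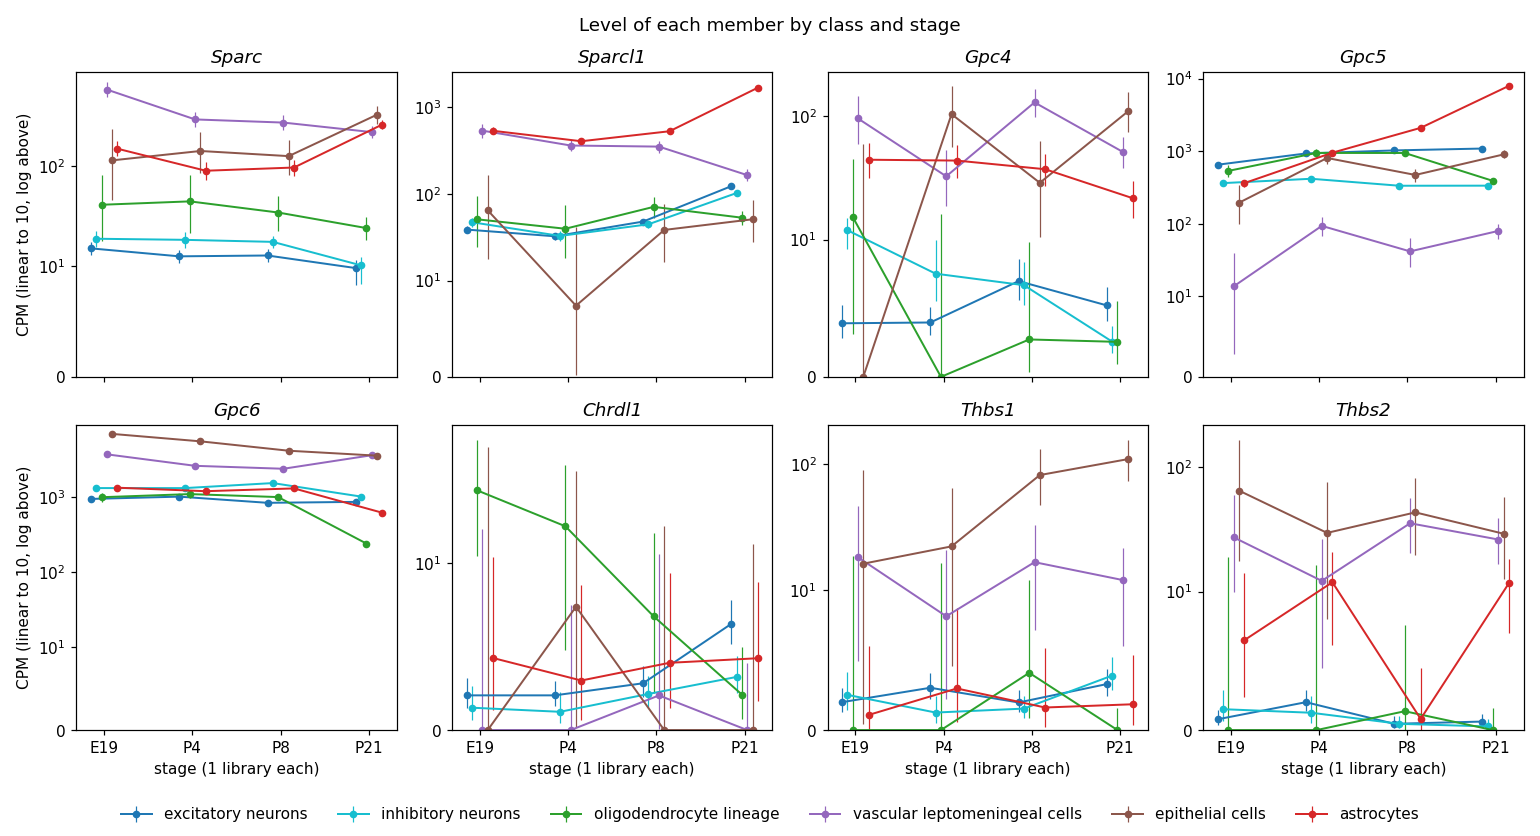
Level in CPM of each of the 8 members at 4 stages in 6 classes (colours), with 95% Poisson intervals; the vertical axis is linear up to 10 CPM and logarithmic above. Astrocytes (red) end at 7952 CPM for Gpc5 and 1678 CPM for Sparcl1 at P21, while Chrdl1 and Thbs1 were under 5 CPM there.

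The 2 large glypican genes were abundant in neurons and differed between neuron subtypes, which are again deposited annotations of the same data. For Gpc5 the 3 highest subtypes by mean over libraries were protoplasmic astrocytes (3348 CPM), EN1 (1567) and EN8 (1377). The lowest neuron subtype, IN9, had 51.2 CPM. EN9 held 430 CPM at E19 and 2488 at P21 (5.79-fold, 4.71 to 7.20), and EN13 held 152 and 1664 CPM (10.96-fold, 7.32 to 17.2). At P21 EN9 lay above EN1, which held 1812 CPM, and EN13 lay below it.

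Sums over a whole class differed less. Gpc5 stood at 651, 930, 1025 and 1087 CPM in excitatory neurons and at 363, 417, 334 and 335 CPM in inhibitory neurons, with ratios of P21 to E19 of 1.67 and 0.922. Within subtypes, 14 of the 23 neuron subtypes were at least 2-fold higher at P21 than at E19 and none was 2-fold lower. Over all genes, 13% of gene-by-subtype pairs were higher and 19.5% lower. The median log2 ratio of Gpc5 was 1.12. IN1, which held 78.4% of the Gpc5 UMIs of inhibitory neurons at E19, made up 29.8% of inhibitory nuclei there and 9.46% at P21. IN1 itself went from 723 to 1010 CPM (1.40-fold, 1.3 to 1.5). With subtypes weighted alike, the inhibitory log2 ratio was 1.00 and not -0.12. Microglial Gpc5 was 70.8 CPM at E19 and 135 CPM at P21. IN3, IN4, IN7, IN9, IN12 and EN10 lay under that level at P21 (54.2, 87.3, 67.9, 54.5, 121 and 111 CPM). Of these, IN3, IN4, IN9 and IN12 lay under it at E19 as well (69.5, 43.1, 26.0 and 25.6 CPM). IN4, IN9 and IN12 are among the 14 subtypes counted as higher, and the part of background in this was not tested.

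Gpc6 was highest outside the neural lineages and in 1 inhibitory subtype. The class annotated as epithelial held 7081, 5632, 4218 and 3624 CPM and vascular leptomeningeal cells 3774, 2650, 2420 and 3672 CPM. IN7 held 3697, 3358, 3552 and 2575 CPM, the highest neuron subtype in each of the 4 libraries, with a mean of 3296 CPM against 1915 in IN5. EN8, which was among the highest for Gpc5, was the lowest neuron subtype for Gpc6 (259 CPM). Across the 23 subtypes 4 were 2-fold higher at P21 than at E19 and 3 lower, with a median log2 ratio of 0.00. Over all genes 13% of gene-by-subtype pairs were higher and 19.5% lower, so these counts do not set Gpc6 apart. EN12 went from 72.2 to 438 CPM (6.06-fold, 3.58 to 11.2) and EN9 from 357 to 1636 CPM (4.59-fold). IN12 was 2.82-fold and IN1 2.17-fold higher at E19.

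**Figure D4:**
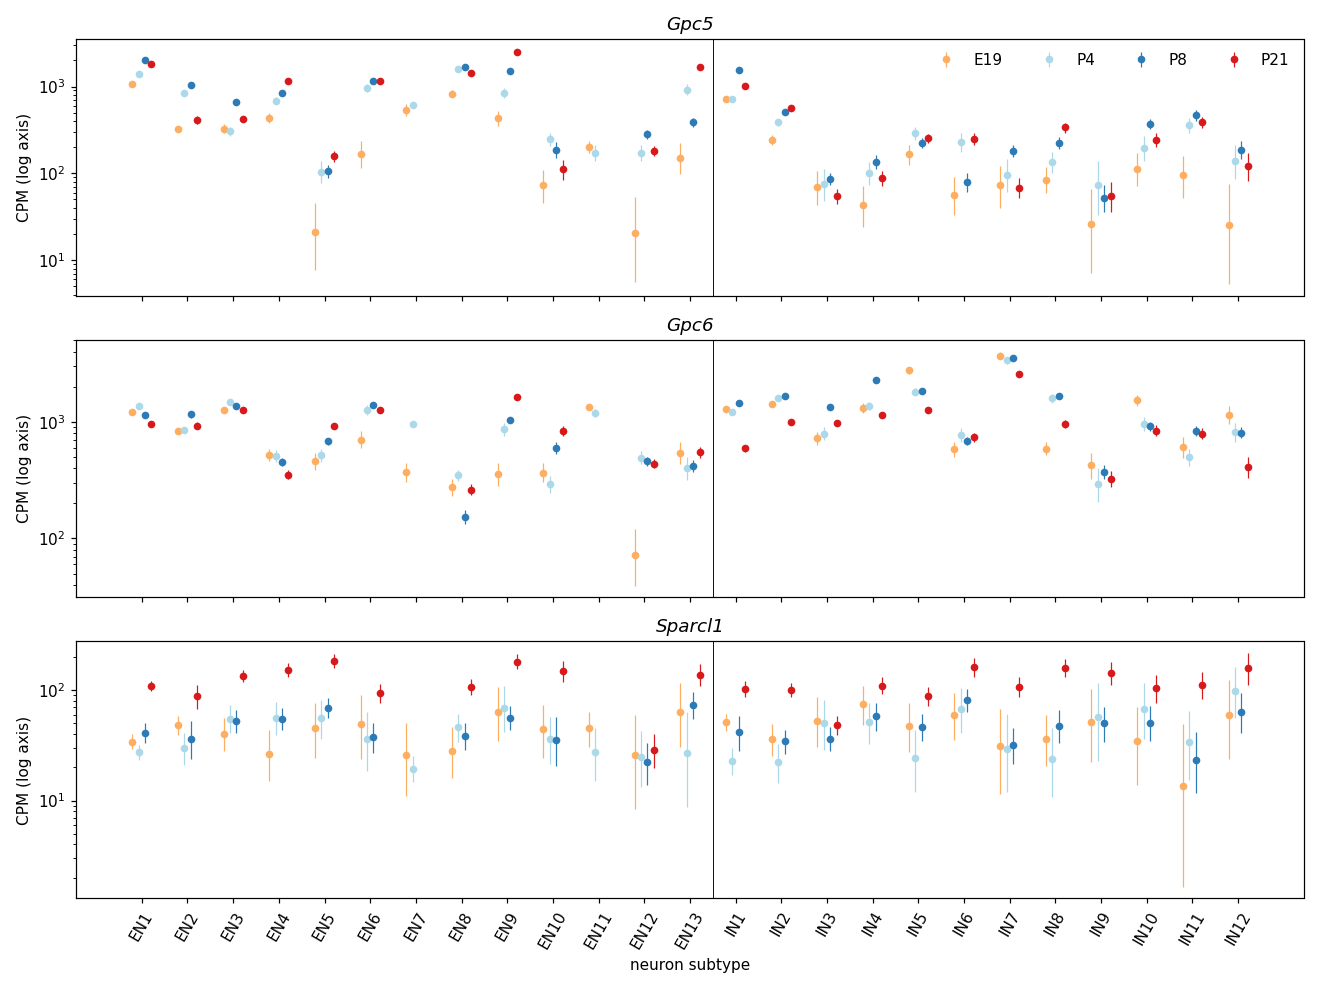
Level in CPM (log axis) of Gpc5, Gpc6 and Sparcl1 in 13 excitatory (EN) and 12 inhibitory (IN) neuron subtypes; colours are the 4 stages, bars are 95% Poisson intervals, and subtypes with fewer than 20 nuclei at a stage have no point. EN9 and EN13 had their highest Gpc5 at P21 (2488 and 1664 CPM), IN7 was highest for Gpc6 at all 4 stages, and P21 lay highest for Sparcl1 in most subtypes.

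In the oligodendrocyte lineage, the sums of both glypicans were lower at P21 than at P4. Gpc5 stood at 534, 946, 944 and 389 CPM and Gpc6 at 1008, 1109, 1012 and 242 CPM. P4 was 2.43-fold above P21 for Gpc5 (2.09 to 2.83) and 4.59-fold for Gpc6 (3.94 to 5.33). These were 2 of the 4 members at 20 CPM, where 30.7% of all genes were 2-fold lower, and none was 2-fold higher (13.5% of all genes).

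The oligodendrocyte precursors alone went another way. They held 551 CPM of Gpc5 (451 to 667), then 1189, 1292 and 2070 CPM (1910 to 2240), a ratio of P21 to E19 of 3.76 (3.05 to 4.67). Gpc6 in precursors was 1023, 1248, 1214 and 1309 CPM. Myelinating oligodendrocytes, which were frequent enough only at P21 (187 nuclei), held 117 CPM of Gpc5 and 56.8 CPM of Gpc6. Precursors made up 77.8% of the lineage at P4 and 20.9% at P21. With 2 of the 3 subtypes of the lineage weighted alike, the log2 ratio of Gpc5 from P4 to P21 turned from -1.28 to 0.67. The other subtype was left out, so this value does not describe the whole lineage. The dividing cells held 396, 1054, 1268 and 1930 CPM of Gpc5, the last on 10 nuclei.

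**Figure D5:**
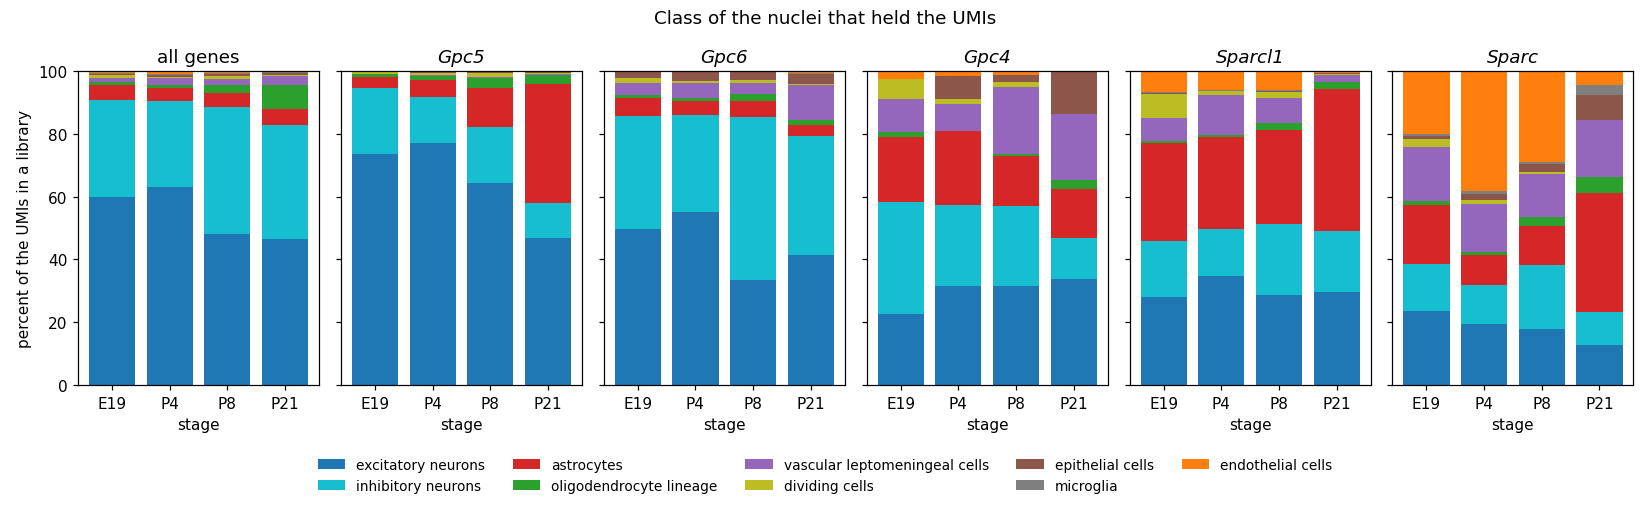
Percent of the UMIs in a library that lay in nuclei of each class (colours), for all genes and for 5 members, at 4 stages. The astrocyte share of Gpc5 UMIs went from 3.28% at E19 to 38.1% at P21, while astrocytes held 4.80% and 5.19% of all UMIs.

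Chrdl1, Thbs1 and Thbs2 were under 20 CPM in astrocytes in all 4 libraries. Chrdl1, a secreted antagonist of bone morphogenetic proteins (chrX:143285674-143394262, GRCm38, minus strand), had 4, 3, 5 and 7 UMIs in astrocytes (2.97 to 4.32 CPM). A difference over stages was not detectable at this depth. Its highest subtypes were dividing cells (19.8 CPM, 11 UMIs), EN10 (19.5) and IN10 (14.8). EN10 held 0 UMIs at E19, where 3 counts would be 9.48 CPM, then 6, 4 and 31 UMIs, the last 57.5 CPM. With the zero set to 3 counts, P21 was 6.06-fold higher than E19. IN10 held 1, 1, 7 and 17 UMIs (37.6 CPM at P21). Oligodendrocyte precursors ran the other way, with 6, 3, 5 and 0 UMIs.

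Thbs1 (chr2:118111876-118127133, GRCm38, plus strand) had 1, 3, 2 and 3 UMIs in astrocytes, at or under 3 counts in every library. It was found in the class annotated as epithelial with 16.2, 22.2, 81.6 and 109 CPM (1, 3, 17 and 30 UMIs) and in the 12 endothelial nuclei of P21 with 176 CPM (13 UMIs). Of the neuron subtypes EN6 had the highest mean, 11.8 CPM, and 23 UMIs at P21. Thbs2 (chr17:14665500-14694235, GRCm38, minus strand) had 6, 12, 1 and 19 UMIs in astrocytes. At E19 all 6 and at P4 9 of the 12 lay in fibrous astrocytes, and at P21 all 19 lay in protoplasmic astrocytes. The fibrous level was 31.5 CPM at E19 and 39.9 CPM at P4 (18.2 to 75.7). By class Thbs2 ranged from 29.1 to 64.7 CPM in the class annotated as epithelial and from 12.2 to 35.3 CPM in vascular leptomeningeal cells.

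Genes that work with the members were read from 60 partners in 8 lists: relatives, receptors and other glial factors. In astrocytes 41 reached 20 CPM, of which 7 were higher at P21 and 11 lower (9.84% and 22% of all genes), and the median log2 ratio was -0.30 against -0.27 over all genes. Gria1, an AMPA receptor subunit, went from 83.1 to 2341 CPM (28.2-fold, 22.5 to 35.8). Mdga2, which binds neuroligins, went from 912 to 3721 CPM, and Il33, a cytokine made by glia, from 12.96 to 87.9 CPM. Smoc1, a relative of Sparc, was at 512 and 52.9 CPM, Ptn, a growth factor, at 3340 and 541 CPM, and Thbs3 at 73.4 and 13.5 CPM.

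The neuron classes were read in the same way. In excitatory neurons 2 of 40 were higher at P21 and 9 lower, where 6.51% and 13.3% of all genes were. In inhibitory neurons 2 of 36 were higher and 9 lower, where 7.26% and 13.6% of all genes were. Bcan, a proteoglycan of the extracellular matrix, was higher in both (11.5 to 41.0 and 15.9 to 53.0 CPM), as was Nptx1, a pentraxin that gathers AMPA receptors, in excitatory neurons (9.45 to 20.9 CPM) and Bmp6 in inhibitory neurons (3.02 to 24.4 CPM). Thbs3 and the pentraxin receptor Nptxr were lower in both: in excitatory neurons Thbs3 went from 67.5 to 10.95 CPM and Nptxr from 62.2 to 13.6 CPM. Mdga1 in excitatory neurons (139 to 32.6 CPM) and Ncan in inhibitory neurons (117 to 26.3 CPM) were also lower. Astrocytes held more of Bcan (569 and 939 CPM at E19 and P21) and of Ncan (513 and 189 CPM), with the same directions. The part of free RNA in the neuron values was not tested.

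Outside neurons and astrocytes the partner counts were 5 of 39 higher and 24 lower from P4 to P21 in the oligodendrocyte lineage (13.5% and 30.7% of all genes), and 1 of 43 and 9 in vascular leptomeningeal cells (5.25% and 16.1% of all genes). Ptprd, a receptor phosphatase, went from 1158 to 5642 CPM in the oligodendrocyte lineage. Megf10, a phagocytosis receptor, went there from 0 to 323 UMIs (137 CPM). With its zero set to 3 counts the ratio was 10.4, and its lower limit was 8.41. Thbs3 went from 17.6 to 48.5 CPM on 4 and 114 UMIs (ratio 2.75, 1.05 to 10.3). Nptxr (57.2 to 4.68 CPM), Ncan (154 to 19.1 CPM) and Bdnf (22.0 to 2.98 CPM) were lower, in a lineage whose makeup changed. They rest on few UMIs: 13 and 11 for Nptxr, 35 and 45 for Ncan, and 5 and 7 for Bdnf. In vascular leptomeningeal cells Cacna2d3, a calcium channel subunit, went from 79.2 to 246 CPM. Il33 (22.3 to 3.27 CPM), Ncan (30.5 to 5.45 CPM) and Fstl4 (52.8 to 14.2 CPM) were lower there, where 3 counts at P21 would be 3.27 CPM.

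Likeness was measured as Pearson's r of log2(CPM + 5) over 18 sums, each of 1 class in 1 library with at least 50 nuclei, among 10983 genes. These sums share libraries, and the values are descriptions. Sparc was most like Gja1 (0.986), and Selenbp1 (0.971) was also among its closest. Sparcl1 was most like Ncoa1 (0.965), Slc4a4 (0.959) and Zfp438 (0.954), and Gpc4 most like Fmo1 (0.957), with Vcam1 (0.951) also among its closest. For Gpc5 these were Dusp22 (0.920), Me1 (0.918) and Lsamp (0.901), and for Gpc6 Plxna2 (0.952), Kcnk2 (0.919) and Fat4 (0.918). Thbs2, low throughout, was most like Parp9 (0.979), Renbp (0.955) and Acss3 (0.95). Those of Chrdl1 (Pus1, Nit1, Qtrt2) and Thbs1 (Anapc10, Angpt2, Lepr) rest on a few UMIs.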

How the data were processed

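Counts of UMIs per gene and nucleus were deposited by the authors in 1 matrix, not normalised, with the stage, class and subtype of each nucleus in a second table. Per the submitters' processing notes Cell Ranger 3.0.2 and mm10 were used; filters on nuclei, doublet removal and the naming of classes are not given in the sources used here. Mitochondrial UMIs, as the deposited percent, were at most 5 per nucleus, and 8 further deposited columns were not used. UMIs were summed per class or subtype and library and scaled to CPM (python 3.11.15, numpy 2.4.6, scipy 1.17.1, pandas 2.3.3). Levels have exact Poisson intervals, ratios exact conditional binomial intervals and shares Clopper-Pearson intervals, all at 95% and for counting error only. In ratios, zeros were set to 3 counts. The ratio script was tested on simulated data. Stage ratios used classes with at least 50 nuclei and subtypes with at least 20, so the oligodendrocyte lineage and vascular leptomeningeal cells were compared from P4. With 1 library per stage no p-value was computed. Members, partner lists and rules were chosen with earlier results of these data known. Named were all members, at most 3 rises and 3 falls of partner genes per class, the 3 most alike genes (some are not reported here) and the 3 highest subtypes; further subtypes were picked with their values in view. Positions are from GENCODE M21, where 99.6% of identifiers matched. Whether intronic reads were counted, which would favour long genes such as Gpc5 and Gpc6, and how strand was used are not given in the sources used here.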

Additional observations from a re-analysis of the deposited data

Results flagged for a closer look

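Sparcl1 differed in direction between classes from P4 to P21. Its log2 ratio was 2.05 in astrocytes, 1.92 in excitatory neurons and 1.65 in inhibitory neurons, and -1.13 in vascular leptomeningeal cells. Gpc5 also differed in direction over the same stages, with a log2 ratio of 3.06 in astrocytes and -1.28 in the oligodendrocyte lineage. The latter was 0.67 with 2 of the 3 subtypes weighted alike and the other left out. Precursors alone held 1189 CPM at P4 and 2070 CPM at P21, while their share of the lineage was 77.8% and 20.9%. Each value compares 1 library with 1 library, and the differences between classes were not tested.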

How the results depend on the processing

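No paired analysis was possible because each stage had 1 library and no replicate. Recomputed counts of members held within 1.5 times the reported count in 95 cases and moved further in 21. In astrocytes the count lower at P21 was 2, and 1 with 5 CPM added, 1 with 20 CPM added and 1 after thinning. It was 1 with subtypes weighted alike, 1 from P4 and 0 under median-of-ratios scaling. That scaling shifted log2 ratios by 0.146 in astrocytes, 0.14 in the oligodendrocyte lineage and 0.103 in vascular leptomeningeal cells. In fibrous astrocytes alone the 1 lower was Thbs2, with 6 UMIs at E19 and 0 at P21. There Gpc4 was under 20 CPM, Gpc6 had a ratio of P21 to E19 of 0.957, and the 1 higher was Sparcl1. In excitatory neurons the count higher was 1, and 2 with no filter and 2 with 12 of the 13 subtypes weighted alike. In inhibitory neurons it was 1, and 0 with 20 CPM added and 2 with no filter, where the count lower was 2. In the oligodendrocyte lineage the count lower was 2, and 1 with nuclei weighted alike and 0 with 2 of the 3 subtypes weighted alike. The count higher there was 1 without nuclei holding markers of another class. In vascular leptomeningeal cells the count higher was 1, and 0 with 5 or 20 CPM added and 2 without marker-holding nuclei; the count lower was 1, and 0 after thinning and 0 without those nuclei. Gpc5 in the oligodendrocyte lineage turned to 0.67 with 2 of the 3 subtypes weighted alike, and Sparcl1 in vascular leptomeningeal cells to 1.69 on 3 and 6 nuclei left. The cause was not tested. The values from P4 and from single astrocyte subtypes were added after seeing the data. Chrdl1, Thbs1 and Thbs2 are limited by depth in astrocytes.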
